A study of Mus musculus with 20 samples.

Results

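Genes of cyclic GMP (cGMP) signalling were followed through RNA-seq of sorted mouse fat progenitor cells. They were Nppc, which encodes C-type natriuretic peptide, the natriuretic peptide receptors Npr1, Npr2 and Npr3, the soluble guanylate cyclase subunits Gucy1a1 and Gucy1b1, the cGMP-dependent protein kinase Prkg1, and the cGMP-degrading phosphodiesterase Pde5a. These 8 genes of the 27179 genes in the table were found by their symbols and had been chosen on their levels in these same libraries. Their levels and differences are therefore given as a description, with no test.

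The libraries came from PDGFRb+ cells of the inguinal white fat of male C57BL/6 mice, a subcutaneous depot, isolated by flow cytometry and divided into adipocyte progenitors with (DPP4+) and without (DPP4-) the surface peptidase DPP4. The mice were kept at room temperature (22 °C) or were exposed to cold (6 °C) for 24 h, so that there were 4 groups, each of 5 libraries: DPP4+ at 22 °C, DPP4+ at 6 °C, DPP4- at 22 °C and DPP4- at 6 °C. No transgene or drug is named for any group. The ages of the mice are not given in the sources used here, and no label says that each library came from its own mouse, so the spread between libraries may be partly technical.

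Cyclic GMP is made by 2 kinds of enzyme. Membrane guanylate cyclases carry a peptide-binding domain outside the cell: NPR1 binds the atrial and B-type natriuretic peptides and NPR2 binds C-type natriuretic peptide, while NPR3 lacks the cyclase domain, binds all of these peptides and removes them. Soluble guanylate cyclase is a dimer of an alpha and a beta subunit that is switched on by nitric oxide. The cGMP then activates protein kinase G and is broken down by phosphodiesterases, and in fat tissue the pathway is known for raising lipolysis in adipocytes.

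The sequences just upstream of a transcription start are shown for 3 members. The choice rests on the ratio of cold to 22 °C levels in DPP4+ cells. Nppc had the highest ratio of the members, and the neighbouring genes Gucy1a1 and Gucy1b1 the lowest. Each run is the 250 bases before a transcription start in RefSeq on GRCm38.p6, on the minus strand, 5′ to 3′. Capitals mark, on either strand, the letters TGACG (part of the cyclic AMP response element), GGGCGG (the core of a GC box), TATAAA (a form of the TATA box) and CCAAT, a common promoter element. On the other strand this last element reads ATTGG and the first reads CGTCA. The window of Nppc lies at chr1:86670574-86670823, that of Gucy1a1 at chr3:82145651-82145900 and that of Gucy1b1 at chr3:82074712-82074961. The Gucy1a1 window lies inside the bounds of that gene (chr3:82092427-82145946).
Nppc: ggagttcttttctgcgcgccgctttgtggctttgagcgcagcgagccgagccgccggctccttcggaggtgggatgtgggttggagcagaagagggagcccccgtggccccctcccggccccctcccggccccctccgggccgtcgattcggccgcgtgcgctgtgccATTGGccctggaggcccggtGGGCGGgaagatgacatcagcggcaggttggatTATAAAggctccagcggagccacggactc
Gucy1a1: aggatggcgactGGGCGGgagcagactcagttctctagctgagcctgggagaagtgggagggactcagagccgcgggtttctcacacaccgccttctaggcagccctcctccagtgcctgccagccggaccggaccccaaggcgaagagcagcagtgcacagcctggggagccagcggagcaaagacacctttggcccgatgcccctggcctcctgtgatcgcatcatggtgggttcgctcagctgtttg
Gucy1b1: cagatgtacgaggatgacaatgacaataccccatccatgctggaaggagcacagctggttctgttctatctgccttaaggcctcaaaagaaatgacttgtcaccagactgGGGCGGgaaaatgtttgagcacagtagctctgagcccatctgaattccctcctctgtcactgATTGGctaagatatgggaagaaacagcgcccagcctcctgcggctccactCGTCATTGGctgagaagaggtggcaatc

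The Nppc window held TATAAA beginning 29 bases before the start, GGGCGG beginning 62 bases before it and CCAAT on the other strand beginning 82 bases before it. The Gucy1a1 window held only GGGCGG, 238 bases before the start. In the Gucy1b1 window, GGGCGG began 140 bases before the start, CCAAT stood at 2 places on the other strand, and the copy nearer the start shared 1 letter with a TGACG match on that strand. A second Gucy1a1 start in the same table, whose window is chr3:82145074-82145323, held none of the 4. Over both strands of the 32851 windows of this length in the table, TGACG was present in 17.8%, GGGCGG in 32.7%, TATAAA in 12.4% and CCAAT in 33.8%. The full element TGACGTCA was in 1.55% of all windows and in 0 of the 10 windows of the 8 members. Among those 10 windows GGGCGG was found in 7, CCAAT in 5, TGACG in 2 (Gucy1b1 and Npr3) and TATAAA in 1. A match is a match of letters, and nothing about binding was measured.

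Nppc (Entrez 18159, chr1:86666293-86670573 on GRCm38), the ligand gene, was near the detection limit in 3 groups and readily detected in cold DPP4+ cells. Levels are normalized counts, that is, reads assigned to the gene divided by 1 factor per library. The 5 libraries of DPP4+ cells at 22 °C held 0, 1.97, 0, 0 and 2.18, from 6 reads in all. Those of DPP4+ cells at 6 °C held 88.8, 71.0, 48.6, 58.8 and 43.4, from 388 reads. Every cold DPP4+ library was thus more than an order of magnitude above every DPP4+ library at 22 °C. DPP4- libraries held 1.35, 3.003, 6.30, 3.07 and 6.43 at 22 °C (15 reads) and 6.70, 8.18, 8.10, 0 and 1.65 at 6 °C (19 reads), and these groups overlapped. The means were 0.829 ± 1.14, 62.1 ± 18.3, 4.03 ± 2.24 and 4.93 ± 3.84 (SD, n = 5 each). Cold DPP4+ cells were 74.9-fold above DPP4+ cells at 22 °C, a fitted difference of 5.29 ± 0.53 (SE) on log2(normalized count + 1), and 12.6-fold above cold DPP4- cells. The 74.9-fold ratio rests on 6 reads at 22 °C and became 114-fold without library 2 of that group and 126-fold without library 5. The fitted difference ran from 3.51 (pseudocount 5) to 6.27 (DESeq2) over the alternatives. In DPP4- cells the fitted difference between temperatures was -0.06 ± 0.53. A library at 0 can still hold up to 3 reads by counting error alone, so the order of the 3 low groups cannot be read. Nppc reached the mean of 10 normalized counts that a gene needed to be tested only through cold DPP4+ cells.

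**Figure D1:**
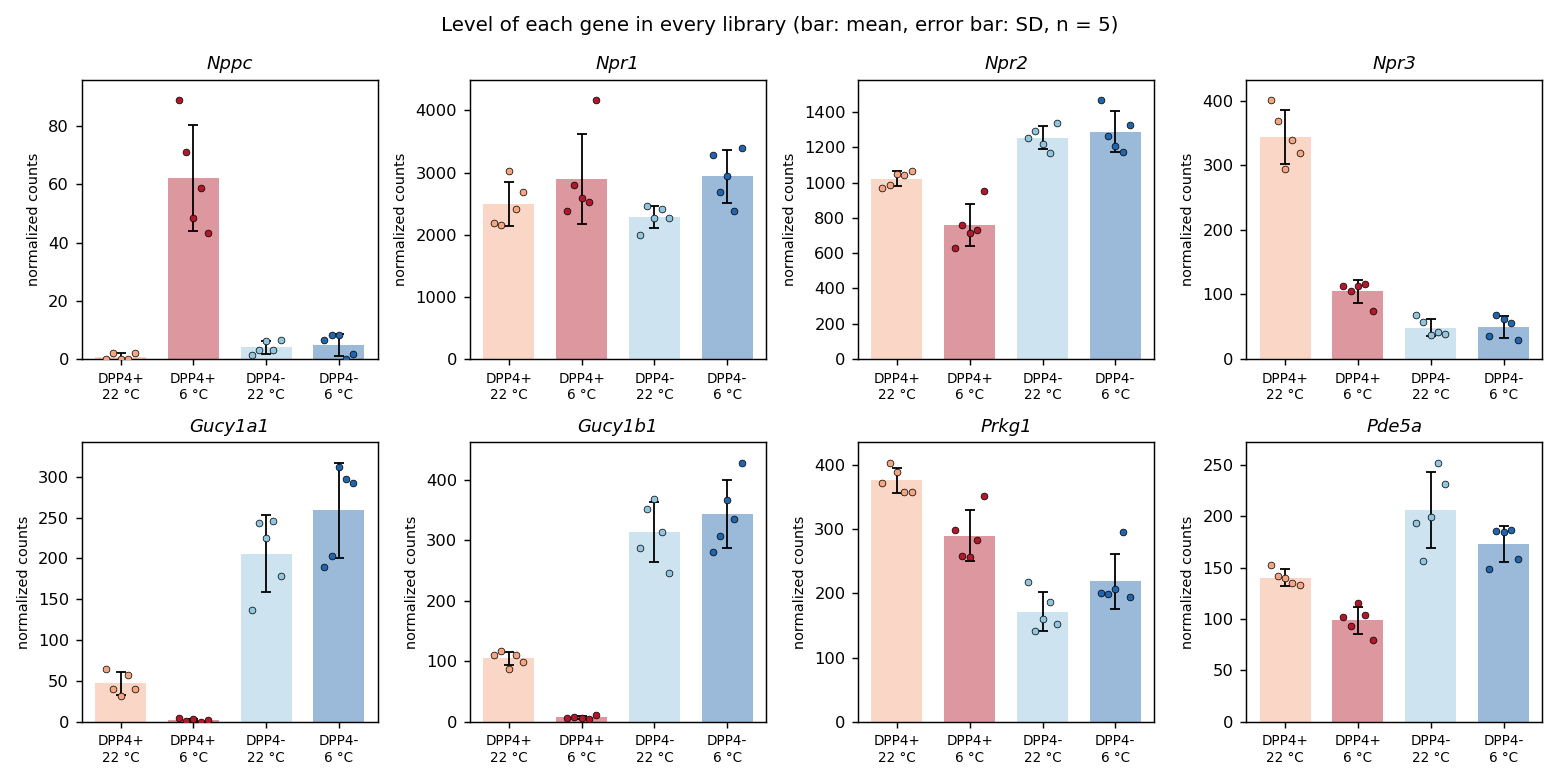
Normalized counts of the 8 genes (vertical axes from 0, a scale of its own for each gene) in the 4 groups on the horizontal axis. Points are single libraries, bars the means and error bars the SD of 5 libraries. Nppc was high only in cold DPP4+ libraries (43.4 to 88.8), and Gucy1a1 and Gucy1b1 were lowest there. With the totals of the libraries set equal, the DPP4+ against DPP4- difference changes sign for Npr2 and Pde5a at 22 °C and for Npr1 at 6 °C.

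The cyclase receptors Npr1 and Npr2 stood above the ligand in all 4 groups. Per kilobase of annotated exon, Npr1 had group means of 477 to 614 normalized counts and Npr2 162 to 276, against 5.16 to 36.7 for Npr3 and 0.796 to 59.6 for Nppc. In cold DPP4+ cells Nppc (59.6) stood above the clearance receptor Npr3 (11.2). Npr1, the receptor of the atrial and B-type peptides, was the highest member per length in all 4 groups.

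Npr1 (Entrez 18160, chr3:90450591-90465928) gave overlapping ranges in every pair of groups. DPP4+ libraries held 2193, 2158, 3019, 2419 and 2680 normalized counts at 22 °C and 2388, 2796, 2596, 2526 and 4161 at 6 °C. DPP4- libraries held 2001, 2458, 2262, 2416 and 2267 at 22 °C and 3290, 2680, 2937, 2387 and 3393 at 6 °C. A single library, the fifth of cold DPP4+ cells, stood above all the others. The ratio of cold to 22 °C means was 1.16 in DPP4+ cells, or 1.03 without that library, and 1.29 in DPP4- cells. The fitted cold differences were 0.20 ± 0.13 (SE) in DPP4+ cells, or 0.06 without that library, and 0.36 ± 0.13 in DPP4- cells, on the log2 scale.

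Npr2 (Entrez 230103, chr4:43629015-43651437), the receptor for the Nppc product, was lower in cold DPP4+ cells than in any other group. DPP4+ libraries held 967, 986, 1047, 1042 and 1067 normalized counts at 22 °C and 629, 761, 713, 733 and 950 at 6 °C, so that the highest cold library lay just under the lowest at 22 °C. DPP4- libraries held 1252, 1294, 1218, 1168 and 1336 at 22 °C and 1465, 1265, 1204, 1173 and 1327 at 6 °C, with much overlap. The group means were 1022 ± 43.1 and 757 ± 119 in DPP4+ cells and 1254 ± 65.2 and 1287 ± 116 in DPP4- cells. The DPP4+ mean was 1.35-fold lower in the cold, a log2 difference of -0.44 ± 0.08 (SE), against 0.03 ± 0.08 in DPP4- cells. The group with the highest Nppc level thus had the lowest Npr2 level. Within single libraries, the Nppc to Npr2 ratio per length was 0.205 to 0.633 in cold DPP4+ cells. It reached at most 0.0301 in any other library.

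Npr3 (Entrez 18162, chr15:11839896-11907837), the clearance receptor, was the receptor that varied most between groups. DPP4+ libraries held 401, 368, 295, 339 and 319 normalized counts at 22 °C and 114, 106, 114, 117 and 74.0 at 6 °C. DPP4- libraries held 67.5, 57.1, 37.8, 41.5 and 38.6 at 22 °C and 36.2, 68.2, 62.1, 56.5 and 28.8 at 6 °C. All cold DPP4+ libraries lay below all those at 22 °C and above all DPP4- libraries, while the 2 DPP4- groups overlapped. The DPP4+ mean was 3.28-fold lower in the cold (105 ± 17.7 against 344 ± 41.4), a log2 difference of -1.72 ± 0.21 (SE). Without the fifth cold library, the lowest of that group, it was 3.06-fold lower. At 22 °C, DPP4+ cells were 7.10-fold above DPP4- cells and in the cold 2.08-fold.

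Ratios within a library do not depend on the scaling between libraries. Per length, the clearance receptor stood at 0.0723 ± 0.0180 of Npr1 in DPP4+ cells at 22 °C and at 0.0197 ± 0.00624 in the cold (SD, n = 5), and the 2 ranges did not overlap. In DPP4- cells the ratio was 0.0110 ± 0.00373 and 0.00914 ± 0.00392, with overlap. The Npr3 to Npr2 ratio was 0.168 ± 0.0272 and 0.0713 ± 0.0196 in DPP4+ cells and 0.0192 ± 0.00514 and 0.0199 ± 0.00771 in DPP4- cells, each pair in the order 22 °C, 6 °C. Npr1 to Npr2, a ratio added after the files were read, was 2.38 ± 0.270 and 3.70 ± 0.346 in DPP4+ cells, with no overlap. In DPP4- cells it was 1.78 ± 0.178 and 2.22 ± 0.213, and these ranges overlapped.

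**Figure D2:**
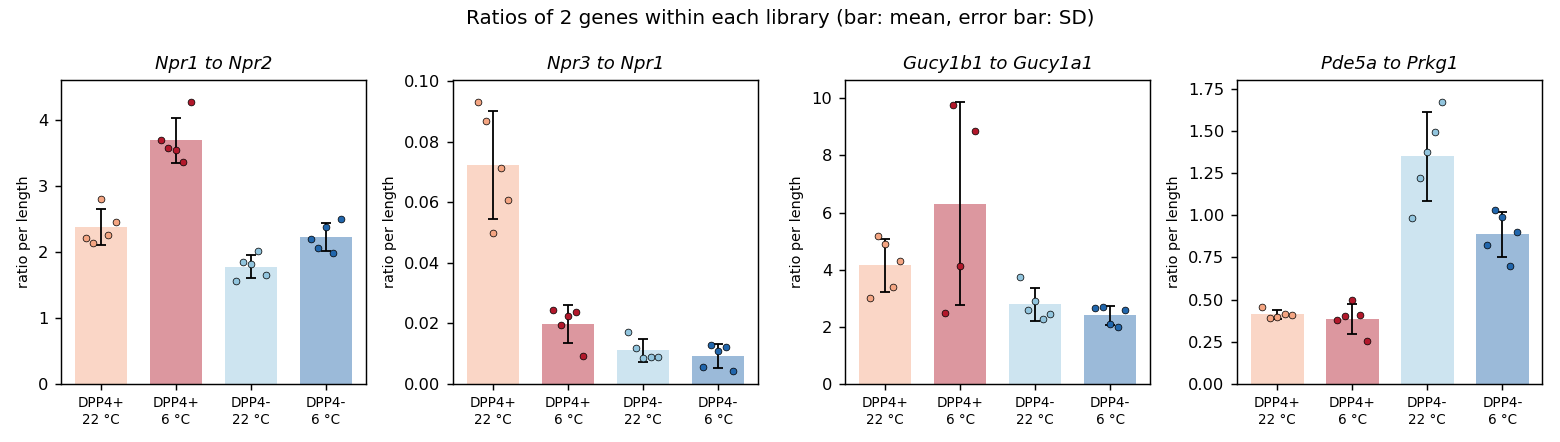
Ratios of pairs of members within each library (vertical axes from 0, per kilobase of exon, no unit) in the 4 groups. Points are libraries, bars means and error bars SD of 5 libraries, except Gucy1b1 to Gucy1a1 in cold DPP4+ cells, where 1 library without Gucy1a1 reads leaves 4. Npr3 to Npr1 was 0.0723 in DPP4+ cells at 22 °C and 0.0197 in the cold.

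The subunits of soluble guanylate cyclase, the nitric oxide receptor, were the members with the lowest cold to 22 °C ratios in DPP4+ cells. Gucy1a1 (alpha subunit, Entrez 60596, chr3:82092427-82145946) and Gucy1b1 (beta subunit, Entrez 54195, chr3:82032004-82074711) are neighbours on GRCm38 with a gap of 17.7 kb. Gucy1a1 libraries of DPP4+ cells held 64.7, 39.95, 31.8, 57.6 and 40.7 normalized counts at 22 °C (357 reads) and 4.31, 1.32, 2.91, 0 and 2.24 at 6 °C (13 reads). Each cold DPP4+ library was thus far under each library at 22 °C, and 1 had no read. DPP4- libraries held 136, 243, 226, 246 and 179 at 22 °C and 189, 203, 312, 297 and 293 at 6 °C, which overlapped and lay above all DPP4+ libraries. The DPP4+ mean was 21.8-fold lower in the cold (2.16 ± 1.63 against 47.0 ± 13.6), a log2 difference of -4.08 ± 0.32 (SE). In DPP4- cells the difference was 0.33 ± 0.32.

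Gucy1b1 gave the same order of groups. DPP4+ libraries held 110, 117, 87.6, 110 and 98.9 normalized counts at 22 °C and 6.04, 7.23, 6.80, 4.26 and 11.2 at 6 °C (45 reads). DPP4- libraries held 288, 353, 369, 313 and 246 at 22 °C and 282, 307, 367, 335 and 428 at 6 °C. The 2 DPP4+ groups were apart from each other and from DPP4- cells, and the DPP4- groups overlapped. The DPP4+ mean was 14.7-fold lower in the cold (7.11 ± 2.56 against 105 ± 11.5), a log2 difference of -3.75 ± 0.17 (SE), and 2.997-fold lower than the DPP4- mean at 22 °C. In DPP4- cells the difference between temperatures was 0.13 ± 0.17. Per length, the beta subunit exceeded Gucy1a1 in every library where both were read, with mean ratios of 4.16 ± 0.930 in DPP4+ and 2.78 ± 0.585 in DPP4- cells at 22 °C.

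Gucy1a2, the other alpha subunit, is no member but pairs with the same beta subunit. Its mean fell from 167 ± 18.2 to 59.5 ± 6.55 normalized counts in cold DPP4+ cells (SD, n = 5), a log2 difference of -1.47 with an adjusted p of 7.64e-12 by limma. It also fell in DPP4- cells, from 1503 ± 138 to 987 ± 132 (log2 difference -0.61, limma adjusted p 0.000607). The fall was larger in DPP4+ cells by 0.86 on the log2 scale (difference of the cold effects, limma adjusted p 2.57e-05). The Gucy1a2 to Gucy1a1 ratio per length was 4.05 ± 1.54 in DPP4+ cells at 22 °C and 7.94 ± 1.63 in DPP4- cells. It was 4.09 ± 0.639 in cold DPP4- cells, and 13.4 to 50.8 in the 4 cold DPP4+ libraries with a Gucy1a1 read. Gucy1b2 was below the level required.

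Soluble guanylate cyclase is abundant in pericytes and vascular smooth muscle, so markers of these cells were set beside it. The summed level of 10 pericyte markers ran from 647 to 777 in DPP4+ cells at 22 °C and from 629 to 827 in the cold. It ran from 5361 to 7072 in DPP4- cells at 22 °C, where Higd1b was at 0 in all libraries, and from 6344 to 8860 in the cold. Of 8 pericyte markers tested with limma, 1 was higher and 6 lower in DPP4+ than in DPP4- cells at 22 °C, and 2 rose and 2 fell in cold DPP4+ cells. The DPP4+ sum holds genes that went opposite ways in the cold: Abcc9 rose from 222 to 342, while Notch3 fell from 239 to 138 and Cspg4 from 84.9 to 34.0. The sum of 8 smooth muscle markers was 9480 to 12350 in DPP4+ cells at 22 °C and 4156 to 7008 in the cold, where limma called 5 of the 8 lower and edgeR and DESeq2 7 each. None of the 8 was higher at an unadjusted p under 0.05 with any of these tools. Over all tested genes limma called 23.5% higher and 22.6% lower in cold DPP4+ cells. The smooth muscle sum was 1399 to 1873 and 1270 to 1720 in DPP4- cells. At 22 °C limma called 5 of the 8 higher and 2 lower in DPP4+ than in DPP4- cells. Of all tested genes, 38.7% were higher and 36.2% lower in that comparison. Acta2 (6046 against 45.6 in DPP4- cells) and Tagln (3700 against 74.9) carried most of the DPP4+ sum. Smtn went the other way, at 560 against 1296. The part of pericytes and smooth muscle cells in the differences between groups was not tested. In bulk libraries fewer cells of a type and less RNA per cell cannot be told apart.

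Prkg1 (Entrez 19091, chr19:30564487-31765268), the type I cGMP-dependent kinase, was higher in DPP4+ than in DPP4- cells. DPP4+ libraries held 371, 403, 389, 358 and 358 normalized counts at 22 °C and 299, 258, 256, 283 and 352 at 6 °C. DPP4- libraries held 217, 141, 160, 186 and 153 at 22 °C and 200, 199, 207, 296 and 194 at 6 °C. The DPP4+ groups were just apart, with cold lower, whereas the DPP4- groups overlapped. The DPP4+ mean was 1.30-fold lower in the cold, a log2 difference of -0.38 ± 0.12 (SE). The DPP4- mean was 1.28-fold higher, a log2 difference of 0.35 ± 0.12, or 1.17-fold and 0.24 without the fourth cold library. The population ratio was 2.19 at 22 °C, with no overlap, and 1.32 in the cold, with overlap.

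Pde5a (Entrez 242202, chr3:122729158-122859374), whose product hydrolyses cGMP, was lowest in cold DPP4+ cells. DPP4+ libraries held 153, 142, 140, 135 and 133 normalized counts at 22 °C and 102, 93.4, 116, 104 and 80.0 at 6 °C, with no overlap. DPP4- libraries held 193, 156, 199, 252 and 232 at 22 °C and 149, 185, 185, 186 and 159 at 6 °C, with overlap. The log2 cold differences were -0.51 ± 0.11 (SE) in DPP4+ cells (1.42-fold lower) and -0.24 ± 0.11 in DPP4- cells. Per length, Pde5a stood at 0.413 ± 0.0260 of Prkg1 in DPP4+ cells at 22 °C and at 0.386 ± 0.0887 in the cold, which overlapped. In DPP4- cells the ratio was 1.35 ± 0.264 and 0.888 ± 0.134, again with overlap. The phosphodiesterase was thus under the kinase in every DPP4+ library.

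**Figure D3:**
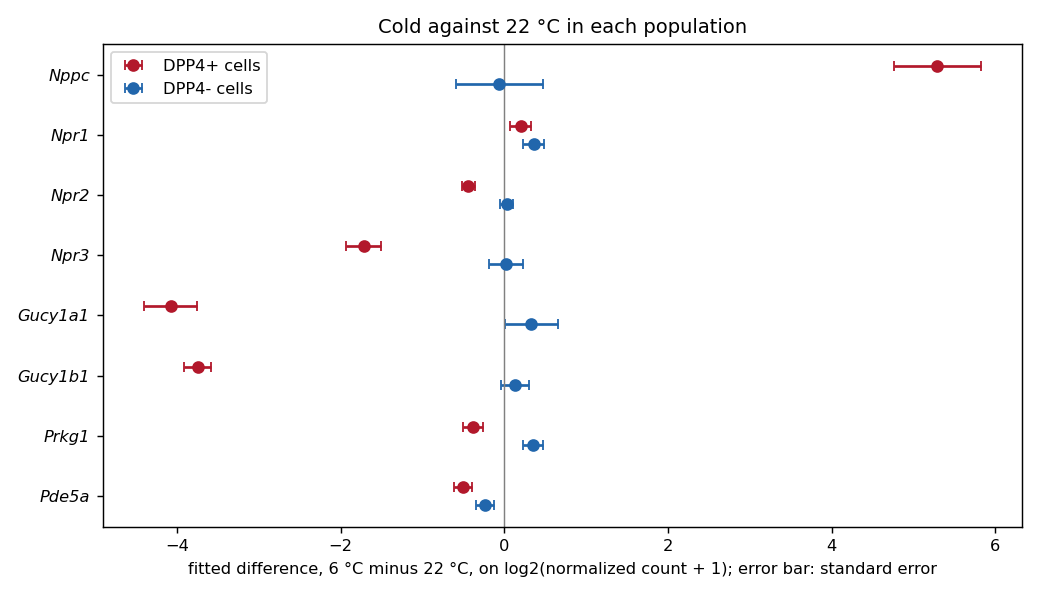
Fitted difference between 6 and 22 °C for each of the 8 genes (horizontal axis, log2 of normalized count + 1) in DPP4+ and DPP4- cells. Points are fitted values and bars 1 standard error. In DPP4+ cells Nppc stood at 5.29 and Gucy1a1 at -4.08, while in DPP4- cells the 8 genes lay between -0.24 and 0.36.

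Across the 8 members, cold and 22 °C libraries did not overlap in DPP4+ cells for 7, with Nppc above and the 6 others below, where 38.4% of the 13057 tested genes were apart. In DPP4- cells 0 of 8 were apart, against 4.87% of all genes. The median fitted cold difference of the members was -0.48 in DPP4+ and 0.08 in DPP4- cells, and that of all tested genes 0.01 and 0.00. Between the populations at 22 °C, 6 members were apart (Npr3 and Prkg1 higher in DPP4+ cells, Npr2, Gucy1a1, Gucy1b1 and Pde5a lower), against 64.8% of all genes. In the cold 6 were apart (Nppc and Npr3 higher in DPP4+ cells, the same 4 lower), against 57.1%. As the members were chosen on these levels, nothing is read from these counts.

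The population comparisons depend on how the 2 populations are put on one scale. The deposited totals were lower in DPP4+ than in DPP4- libraries, and setting all totals equal moves the median DPP4+ against DPP4- difference of all genes from 0.03 to 0.639 at 22 °C and from 0.03 to 0.495 in the cold, on the log2 scale. At 22 °C the DPP4+ against DPP4- difference of Npr2 was -0.29 on the log2 scale as deposited and 0.32 with totals equal, and that of Pde5a was -0.54 and 0.07. In the cold that of Npr1 was -0.04 and 0.43. The directions of the other members, and those of all 8 in the cold comparison of DPP4+ cells, were the same under both scalings.

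The other genes of the pathway had been put in 8 lists of 74 symbols, of which 72 were in the table and 41 passed the minimum level. In cold DPP4+ cells, 9 of the 41 rose and 16 fell (limma with Benjamini-Hochberg adjustment over all genes, threshold 0.05), where 23.5% of all tested genes rose and 22.6% fell. The median log2 difference was -0.08, against 0.01 for all genes. In cold DPP4- cells 2 rose and 3 fell, where 1.98% of all genes rose and 3.23% fell. The cold effect differed between the populations for 21 of the 41, being more positive in DPP4+ cells for 6 and more negative for 15, where 16.8% and 16.4% of all genes did so. The lists, like the members, were chosen with earlier results of these data known.

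The peptides themselves were hardly detected: Nppa, Nppb and the processing protease Corin were below the level required, as was Ostn, whose product is a ligand of NPR3. Of the 3 tested genes of peptide processing and removal, Furin rose in cold DPP4+ cells and Mme fell, where 23.5% of all tested genes rose and 22.6% fell. Mme, or neprilysin, which degrades natriuretic peptides, went from 188 ± 8.30 to 126 ± 32.9 (SD, n = 5, log2 difference -0.62, limma adjusted p 0.000256). It stood at 2402 ± 151 in DPP4- cells at 22 °C, 12.7-fold above DPP4+ cells. Of the other membrane guanylate cyclases, Gucy2c, Gucy2d, Gucy2e, Gucy2f and Gucy2g were below the level required.

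Of 8 tested nitric oxide synthases and partners, limma called 0 higher and 2 lower in cold DPP4+ cells, a share close to the 22.6% of all genes called lower. None was higher at an unadjusted p under 0.05 in limma, edgeR or DESeq2, while edgeR called 3 lower (Nosip added) and DESeq2 4 (Nosip and Nostrin added). Cav1, whose product binds and holds back the endothelial synthase, went from 2086 ± 199 to 1001 ± 46.9 (log2 difference -1.05, limma adjusted p 2.37e-11). Ddah1, which breaks down the natural synthase inhibitor dimethylarginine, went from 660 ± 91.9 to 350 ± 79.7 (log2 difference -0.94, limma adjusted p 0.00106) and at 22 °C stood 80.4-fold above its DPP4- level. Nos1 was below the level required. The other synthases were tested but low, with group means of 7.38 to 21.5 for Nos2 and 5.16 to 18.2 for Nos3. The calls therefore say little about the synthases themselves.

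Of 9 tested genes of arginine and tetrahydrobiopterin supply, 2 rose (Ass1 and Asl) and 2 fell (Slc7a2 among them) in cold DPP4+ cells. Both shares were close to those of all tested genes, of which 23.5% rose and 22.6% fell. Ass1, which with Asl remakes arginine from citrulline, rose from 55.9 ± 9.43 to 348 ± 68.8 (log2 difference 2.61, limma adjusted p 2.55e-05). Slc7a2, a carrier that brings arginine into the cell, fell from 440 ± 38.3 to 57.4 ± 10.6 (-2.93, limma adjusted p 1.57e-12). In DPP4- cells limma and edgeR called 0 of the 9, with 1 (Slc7a2, lower) at an unadjusted p under 0.05 that DESeq2 called, and the cold effect differed between the populations for Ass1 and Slc7a2. Of all tested genes in DPP4- cells, limma called 1.98% higher and 3.23% lower in the cold. Pts, a tetrahydrobiopterin synthesis enzyme, was 2.17-fold higher in DPP4+ cells at 22 °C and did not pass in either cold comparison.

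Downstream of cGMP, 2 of 8 tested protein kinase G genes and substrates rose in cold DPP4+ cells (Prkg2 and Rgs2) and 4 fell (Mrvi1, Vasp, Itpr1 and Kcnma1). Of all tested genes, 23.5% rose and 22.6% fell. Mrvi1, also called Irag1, links the kinase to the inositol trisphosphate receptor and went from 32.8 ± 5.84 to 1.63 ± 1.17 (log2 difference -3.77, limma adjusted p 1.26e-10). It was thus 20.1-fold lower, and its DPP4- means were 71.6 ± 15.1 and 90.8 ± 44.1. Itpr1, that receptor, fell by 0.28 on the log2 scale (limma adjusted p 0.0142). Rgs2, a kinase substrate that damps G protein signals, rose from 42.8 ± 4.47 to 122 ± 20.1 (1.48, limma adjusted p 7.74e-05). Prkg2, the type II kinase, rose from 374 ± 64.4 to 542 ± 113 (0.53, limma adjusted p 0.024). That last call was lost without DPP4+ library 1 or 4 at 22 °C (0.46 without either) or library 5 in the cold (0.42). Rgs4 passed in neither cold comparison in limma. In DPP4- cells edgeR and DESeq2 called it lower (-0.67 in both), as did limma with a pseudocount of 5 (-0.67) or without the fourth cold library (-0.80). It was 15.7-fold lower in DPP4+ than in DPP4- cells at 22 °C.

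All 8 tested genes listed as other cGMP phosphodiesterases were called by limma in cold DPP4+ cells, 2 upward and 6 downward. Over all tested genes 23.5% rose and 22.6% fell. Pde1b, a calcium-dependent enzyme, went from 42.6 ± 8.59 to 4.34 ± 2.12 (log2 difference -3.11, limma adjusted p 2.25e-10). Pde2a, which cGMP itself activates, went from 82.5 ± 5.63 to 31.9 ± 4.84 (-1.36, limma adjusted p 1.68e-09). Pde11a fell from 23.9 ± 1.91 to 11.98 ± 2.44, and Pde3a by 0.26 on the log2 scale (limma adjusted p 0.0176). The 2 that rose were Pde10a, from 435 ± 95.3 to 1442 ± 173 (1.75, limma adjusted p 8.42e-09), and Pde3b, from 140 ± 9.40 to 288 ± 54.8 (1.01, limma adjusted p 3.02e-08). Both also degrade cyclic AMP, and cGMP inhibits the product of Pde3b. Abcc4, an exporter of cyclic nucleotides, rose from 362 ± 23.6 to 792 ± 91.3 (1.12, limma adjusted p 6.66e-12).

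In cold DPP4- cells the 5 called genes were Pde2a and Pde3a, which rose, and Cav1, Gucy1a2 and Pde11a, which fell. Pde2a rose from 247 ± 32.8 to 353 ± 51.9 (0.51, limma adjusted p 0.013), opposite to DPP4+ cells, and this call was lost with array weights (0.44). Pde3a rose from 737 ± 111 to 939 ± 112 (0.35, limma adjusted p 0.0201), also opposite, though the call was lost without DPP4- library 2 (0.30) or 3 (0.29) at 22 °C, with the replicate number as a block, or with only the DPP4- groups fitted. For Cav1 the fall of 0.27 (limma adjusted p 0.029) was lost without any 1 of 5 DPP4- libraries (1, 2 and 3 at 22 °C, 1 and 3 at 6 °C), with differences of -0.26 to -0.22, and under 5 other settings. Pde11a fell by 0.54 on the log2 scale (limma adjusted p 0.0148).

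**Figure D4:**
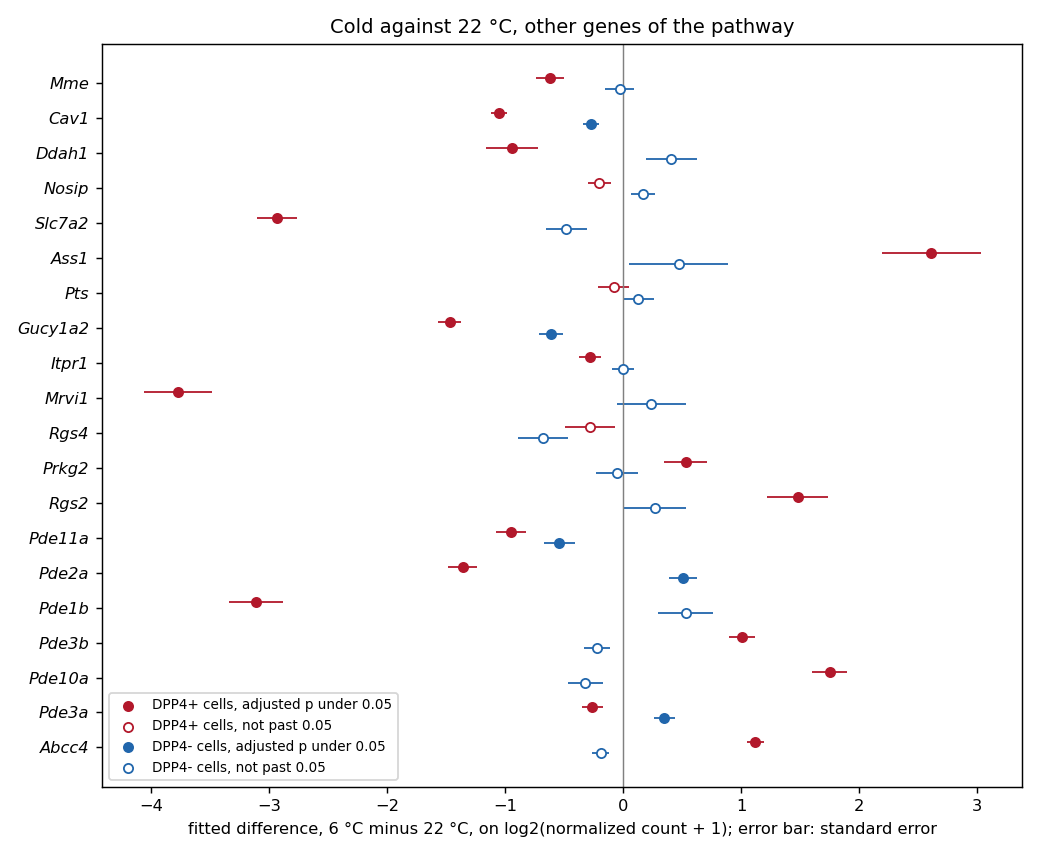
Fitted difference between 6 and 22 °C (horizontal axis, log2 of normalized count + 1, bars 1 standard error) for 20 pathway genes that are no members, in DPP4+ and DPP4- cells. Filled points passed the adjusted threshold of 0.05 in limma, open points did not. Mrvi1 (-3.77) and Pde1b (-3.11) were the lowest in DPP4+ cells, Ass1 (2.61) the highest, and Pde2a and Pde3a were called in opposite directions in the 2 populations.

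Between the populations at 22 °C, 14 of the 41 were higher and 21 lower in DPP4+ cells (38.7% and 36.2% of all genes), and in the cold 13 and 22 (38.5% and 35.7%). With totals set equal, the genes lower in DPP4+ cells numbered 12 at 22 °C and 14 in the cold, and the differences of Pde3a (0.14) and Abcc4 (0.34) at 22 °C changed sign. Ass1, Prkg2, Pde11a and Pde1b had the same direction under both scalings. Ass1 was 20.4-fold higher in DPP4+ cells at 22 °C and 77.6-fold in the cold (125-fold without the fourth cold DPP4- library), and Prkg2 4.48-fold and 6.86-fold. Pde11a was 38.6-fold and 53.4-fold lower, and Pde1b 7.75-fold and 110-fold lower.

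For each member, the 3 genes with the nearest pattern over the 20 libraries were found, by the root mean square difference of centred log2 levels. For Nppc they were F5, Star and Alpl (0.883 to 0.977, against 2.12 for the spread of Nppc itself). For Gucy1a1 they were Septin4, the member Gucy1b1 and Pde1b (0.586 to 0.723, against 2.65), and for Gucy1b1 Ripor3, Mrvi1 and Serpina3g (0.526 to 0.548, against 2.21). The beta subunit gene and 2 pathway genes were thus among the nearest to the cyclase subunits. For Npr3 they were Pask, Amotl2 and Trim46 (0.343 to 0.348, against 1.20). Npr2 lay nearest to Rftn2, Arhgap10 and Capn2 (0.098 to 0.108, against 0.333), and Npr1 to Adamtsl5, Angptl2 and Ppp2r5a (0.148 to 0.155, against 0.248). Prkg1 lay nearest to Maf1, Bcor and Fam189b (0.164 to 0.189, against 0.467), and Pde5a to Ccdc82, Mycbp2 and Ank (0.144 to 0.159, against 0.423). Libraries of a group share their population and temperature, and these likenesses are a description.

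The sort was visible in the libraries: Dpp4 averaged 8546 and 10040 normalized counts in DPP4+ cells and 67.9 and 61.3 in DPP4- cells (22 and 6 °C). Pdgfrb ranged from 1379 to 4826 over all libraries and was lowest in cold DPP4+ cells (1379 to 1592). The libraries held 8.49 to 18.8 M assigned reads (M, 1e+06), and the fourth cold DPP4- library was the shallowest. Pdgfra, another progenitor marker, fell from 11510 ± 419 to 5287 ± 463 in cold DPP4+ cells (limma adjusted p 2.91e-11). Limma called 2 of the 10 progenitor markers lower there and 0 higher, where 22.6% of all tested genes were lower and 23.5% higher. The sums of the 10 in DPP4+ cells overlapped, at 430000 to 735500 at 22 °C and 404700 to 612200 in the cold. Other marker sums moved with cold as well. In DPP4+ cells immune markers summed to 68.4 to 88.7 at 22 °C and 97.2 to 155 in the cold, with Cd3e at 0 in all cold libraries. Adipocyte markers there summed to 693 to 1000 and 408 to 739. Single genes weighed on such sums: in DPP4+ cells Csf1r went from 32.0 to 88.4. Limma called 1 of 4 tested immune markers higher and 0 lower. Of 6 tested adipocyte markers it called 1 higher and 0 lower, although the sum fell. In DPP4- cells the immune sums were 131 to 257 and 74.9 to 833, and the adipocyte sums 67.5 to 174 and 161 to 440. The mesothelial sums were 20.3 to 46.1 and 52.3 to 76.4. The 833 was the second cold library alone, with Cpa3 at 312. Lrrn4 went from 8.42 to 36.9, and limma called 1 of 2 tested mesothelial markers higher and 0 lower. It called 3 of 6 tested adipocyte markers higher and 0 lower, and 0 of 4 tested immune markers either way. Of all tested genes in cold DPP4- cells, 1.98% were higher and 3.23% lower. Over all libraries endothelial markers summed to 908 to 4284, Schwann cell markers to 159 to 720, and the 10 progenitor markers to 404700 to 1835000. Tek, at 2811 and 2983 (22 and 6 °C), made up most of the endothelial sum in DPP4+ cells. At 22 °C limma called 1 of 8 tested endothelial markers higher and 5 lower in DPP4+ than in DPP4- cells (38.7% and 36.2% of all genes). In cold DPP4+ cells it called 1 higher and 0 lower, and Kdr went from 30.3 to 251. Mesothelial sums in DPP4+ cells were 52.4 to 81.5 and 65.8 to 89.5. The part of other cells in the member levels was not tested. The fifth cold DPP4+ library held the highest level of its group for 4 of the 8 members and the lowest for 3. It also stood apart over the tested genes with enough reads. A chi-square distance per gene between its reads and those of each other library of its group was 20.5 to 47.6. Among those other libraries the distance was 3.17 to 12.7. The largest distance within any other group was 23.4.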

How the data were processed

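RNA-seq libraries of DPP4+ and DPP4- cells at 22 and 6 °C were used, 5 per group and 20 in all, mapped to columns by their titles. The authors deposited a signal of normalized counts per gene: reads divided by 1 factor per library. Whole reads were recovered for 100% of values (tolerance 0.1 read, largest distance 0.00122), and the deposited factors matched median ratio factors of DESeq2 within 1.12e-07%. DESeq2 1.6.3, featureCounts 1.4.6, HISAT2 2.0.1 and Trim Galore 0.4.1 are named in the submitters' processing notes, as are the builds GRCm38 and mm10. The annotation and the strand setting are not given in the sources used here, so overlapping or antisense genes cannot be told apart.

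The 958 genes without a symbol held 0.0610 to 0.0824% of reads, and 26 symbols turned into dates were restored by gene ID. Genes with a mean of at least 10 (13057) entered limma 3.58.1 in R 4.3.3 on the log2(value + 1) scale (4 group means, moderated variance with trend and robust estimation, two-sided, Benjamini-Hochberg within each of 5 contrasts, threshold 0.05). Fold changes are ratios of group means. Log2 differences are on the log2(value + 1) scale and understate changes of low genes. P-values measure only the spread between these libraries. Lengths are exon unions of GENCODE vM21, so values per length depend on that annotation. Limits for counts of 0 use 3 reads and cover counting error only.

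The members and lists were chosen with earlier results of these data known. Named pathway genes had at least 50 normalized counts in the higher group and an adjusted call with a log2 difference of at least 1 in 1 or more contrasts, at most 6 per list (20 genes, with 1 more not reported here). Marker genes, nearest patterns (3 per member, predicted genes passed over), Dpp4 and Pdgfrb were named by rule too. Counts of calls were repeated with edgeR 4.0.16 and DESeq2 1.42.0 on the whole reads, with other scalings, filters and pseudocounts, and without each library. The procedure was tested on simulated data.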

Additional observations from a re-analysis of the deposited data

Results flagged for a closer look

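Among the 32 sets of 5 libraries (8 members in 4 groups), 3 held a library far from the other 4, by a gap of more than 0.71 of the range of the set. Chance gives about 1 such set in 20 where sets are independent, but the 8 members share their libraries. Npr1 stood at 4161 normalized counts in the fifth cold DPP4+ library, where the others held 2388 to 2796. Npr3 stood at 74.0 in that same library, where the others held 106 to 117. Prkg1 stood at 296 in the fourth cold DPP4- library, where the others held 194 to 207. The first library had 16.2 M reads and the second, the shallowest of all, 8.49 M.

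The cold effect of 15 of the 20 named pathway genes differed between the populations by limma's test of the difference. Of all tested genes, 16.8% had a more positive and 16.4% a more negative cold effect in DPP4+ cells. The 20 were named for a call in 1 or more contrasts, this difference included, so nothing is read from the count. On the log2 scale, the effect in DPP4+ minus that in DPP4- cells was -4.01 for Mrvi1, -3.64 for Pde1b, -2.45 for Slc7a2, -1.87 for Pde2a and -1.35 for Ddah1. It was -0.86 for Gucy1a2, -0.78 for Cav1, -0.62 for Pde3a, -0.58 for Mme and -0.38 for Nosip. It was 2.13 for Ass1, 2.07 for Pde10a, 1.31 for Abcc4, 1.24 for Pde3b and 1.20 for Rgs2. The Nosip call (adjusted p 0.0498 by limma) was the weakest: it was lost without any 1 of 15 of the 20 libraries, with differences of -0.40 to -0.31, and under 5 other settings.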

How the results depend on the processing

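As main counts, 6023 genes were called in cold DPP4+ cells, 681 in cold DPP4- cells, 4329 for the difference of the cold effects, and 9782 and 9693 between the populations at 22 and 6 °C. edgeR on the whole reads called 6513, 615, 4347, 9819 and 9731, and DESeq2 6612, 888, 4531, 9812 and 9711 (6 genes without an adjusted p). The DPP4- count was 1142 with totals set equal (80.1% higher, against 38.0%), 434 with array weights and 392 with only its own 2 groups fitted. In cold DPP4+ cells array weights gave 7789 calls. With totals set equal, 42.0% of calls in cold DPP4+ cells were higher (main 51.0%), 26.9% for the difference (50.6%, its median over all genes moving from 0.01 to -0.13), and 81.7% and 77.0% between populations. Of the pathway genes in cold DPP4- cells, 1 was higher (main 2) with array weights, with the replicate block or with only 2 groups fitted, and 5 were lower (main 3) with DESeq2. Those lower in DPP4+ cells were 12 at 22 °C (main 21) and 14 in the cold (main 22) with totals set equal.

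Leaving out 1 library at a time gave 5443 to 6191, 480 to 938, 3805 to 4596, 9437 to 9906 and 9378 to 9804 calls. Pathway genes higher and lower then numbered 8 to 9 and 16 to 17, 1 to 3 and 2 to 4, 6 to 7 and 13 to 16, 13 to 15 and 20 to 23, and 13 to 13 and 21 to 23. Whether the replicate numbers pair the samples is not given by the labels: 8 of 20 same-numbered pairs of libraries had a correlation of deviations over 0.1 (-0.228 to 0.267), and in 11 the same number correlated best, so the block is an alternative only. With the replicate block the calls were 6181, 861, 4317, 9770 and 9694.

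The sign changed with totals set equal for Npr2 (0.32) and Pde5a (0.07) at 22 °C, Npr1 (0.43) at 6 °C, and Pde3a (0.14) and Abcc4 (0.34) at 22 °C. The cause of these shifts was not tested beyond the change in scale. Depth limits Nppc outside cold DPP4+ cells (6 to 19 reads per group) and Gucy1a1 in cold DPP4+ cells (13 reads).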
